A study of Mus musculus with 3 samples.

Results

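Fascia and adventitial fibroblasts of mouse dorsal skin were taken from 3 droplet single-cell RNA libraries. The cells were chosen by their own measured UMIs of the genes below, so the levels of those genes are no finding. A barcode needed at least 500 genes, at least 1000 unique molecular identifiers (UMIs, each one captured RNA molecule) and at most 15% mitochondrial UMIs. It needed a UMI in at least 3 of Col1a1, Col1a2, Dcn, Lum and Pdgfra, none of Ptprc, Pecam1 or Krt5, at most 1 Coch UMI, and a UMI in at least 2 of the 4 marker genes Pi16, Dpp4, Sema3c and Opcml. Of 33204 barcodes within the gene, UMI and mitochondrial limits, 750 met the rule: 66 of 9408 in the knockout, 159 of 12074 in the old control and 525 of 11722 in the young control. The knockout mice were 2.5 months old and carried R26-CAG-CreER with Yap1 fl/fl and Wwtr1 fl/fl, so that a recombinase under a ubiquitous promoter could act in every skin cell type. They had received tamoxifen by oral gavage at 0.11 mg per g on 2 days a week for 4 weeks. The old control was a 24 month wild-type skin without tamoxifen. The young control was 2.5 months old, carried the same floxed alleles without Cre and had received the same tamoxifen course. Each group was 1 library made from collagenase I digests of dorsal skin, and the labels give no number of animals behind it. The old and young controls differed in age, in the floxed alleles and in tamoxifen, and these cannot be told apart.

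The fascia is the loose connective tissue under the dermis and its skin muscle layer, and adventitial fibroblasts form the outer sheath of vessels. In mice both hold fibroblasts that share Pi16, Dpp4, Cd34 and the surface antigen Ly6a (Sca-1), and cells of this kind are known as progenitors of other fibroblasts and of adipocytes. Pi16 encodes a peptidase inhibitor of the cell surface, Dpp4 a membrane dipeptidase that is also made by papillary dermal fibroblasts, Sema3c a secreted semaphorin and Opcml a membrane-anchored adhesion protein. YAP (Yap1) and TAZ (Wwtr1) are co-activators that carry signals from matrix stiffness and the Hippo kinases to the TEAD transcription factors, and fibroblasts are among the cells in which they promote matrix production.

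The libraries stood apart in quality. They held 57767761 UMIs in the knockout, 52579262 in the old control and 95274423 in the young control, and the median deposited barcode had a mitochondrial share of 18.6%, 9.41% and 5.58%. Within the members the gap was small: knockout members had medians of 6992.5 UMIs and 6.09% mitochondrial UMIs, old control members of 6017 and 5.22%, and young control members of 5526 and 4.29%. No member barcode was shared between libraries, although each pair of libraries had 127 to 198 barcodes in common among all deposited barcodes. The members of the knockout library held 117 UMIs of the Y-linked Ddx3y and none of Xist, while those of both controls held no Ddx3y and 1042 (old) and 3078 (young) Xist UMIs. Genotype therefore goes together with sex-linked expression here, and the pair cannot be told apart. With 1 library per group no test across animals is possible, no p-value is given, and every bracketed interval is a 95% interval for counting error only.

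Members made up 5.02% [3.90 to 6.34] of the fibroblast gate in the knockout (66 of 1315 barcodes), 25.04% [21.7 to 28.6] in the old control (159 of 635) and 39.2% [36.6 to 41.9] in the young control (525 of 1338), by exact Clopper-Pearson intervals. The gate is the collagen and lineage part of the rule with at most 1 Coch UMI. With every barcode thinned to 1500 UMIs before the rule was applied, the shares were 2.09% (20 of 956), 19.5% (97 of 498) and 24.5% (515 of 2103). The knockout share was the lowest of the 3 in both forms. These shares use the rule's own genes and are given as a description. Just outside the threshold stood 304, 221 and 391 gate barcodes with exactly 1 marker gene, at medians of 2932.5, 1816 and 3310 UMIs. Just inside it stood 48, 93 and 288 with exactly 2, at 6936.5, 4475 and 4776.5 UMIs, so the barcodes just inside were deeper than those just outside in every library.

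The requirement of no Ptprc, Pecam1 or Krt5 UMI removed more cells from the controls than from the knockout. Of the barcodes that met every other condition, it left out 45.9% in the knockout (56 of 122), 74.4% in the old control (463 of 622) and 78.1% in the young control (1867 of 2392). A Krt5 UMI, from a basal keratinocyte keratin, was present in 45, 440 and 1789 of the candidates. Keratinocyte RNA was also present within the members: 12 keratinocyte markers summed to 223 CPM (UMIs per 1000000 UMIs of the members) in the knockout, 1172 in the old control and 1920 in the young control, against 8283, 19324 and 15509 CPM over all barcodes within the limits. Of these 12 genes, 10, 11 and 11 were detected in the members. Mural and smooth muscle markers summed to 755, 174 and 538 CPM and Schwann and neural crest markers to 386, 187 and 636 CPM. Keratinocyte markers had the highest of these 3 sums in both controls, and mural markers had it in the knockout. Replacing the requirement by at most 0.5% of UMIs on markers of other lineages gave shares of 19.5% (67 of 343), 46.8% (202 of 432) and 64.8% (1498 of 2312), with the libraries in the same order.

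The 4 rule genes chose the cells, and their levels are a description. Pi16 (ENSMUSG00000024011, chr17:29317680-29330593, plus strand, GRCm38) stood at 436 CPM in knockout members, 1570 in old control members and 1674 in young control members. Dpp4 stood at 101, 147 and 135 CPM in the same order, Sema3c at 98.5, 235 and 346, and Opcml at 35.3, 47.2 and 83.0. The order of the libraries for Dpp4 and Opcml depends on how cells are weighted, since 7 deep cells described below hold much of the knockout sum. At 1500 UMIs per cell Dpp4 was detected in 26.6% of knockout, 19.2% of old control and 17.6% of young control members, with the knockout highest. Sema3c was detected in 25%, 28.8% and 41.2% and Opcml in 4.69%, 4.79% and 8.59%. At equal depth of 1500 UMIs per cell, Pi16 was detected in 42.2% [29.9 to 55.2] of 64 knockout members, 71.2% [63.2 to 78.4] of 146 old control members and 77.3% [73.5 to 80.9] of 512 young control members, after 2, 13 and 13 shallower members were left out. Unthinned, the shares were 81.8%, 94.3% and 94.9%. In immune barcodes, which had a Ptprc UMI and fewer than 3 of the 5 gate genes and should lack Pi16, the thinned share was 2.07%, 6.67% and 7.72%, at median depths of 2789, 2478.5 and 3250 UMIs. The member shares were set by the rule and are not read against this level.

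**Figure D1:**
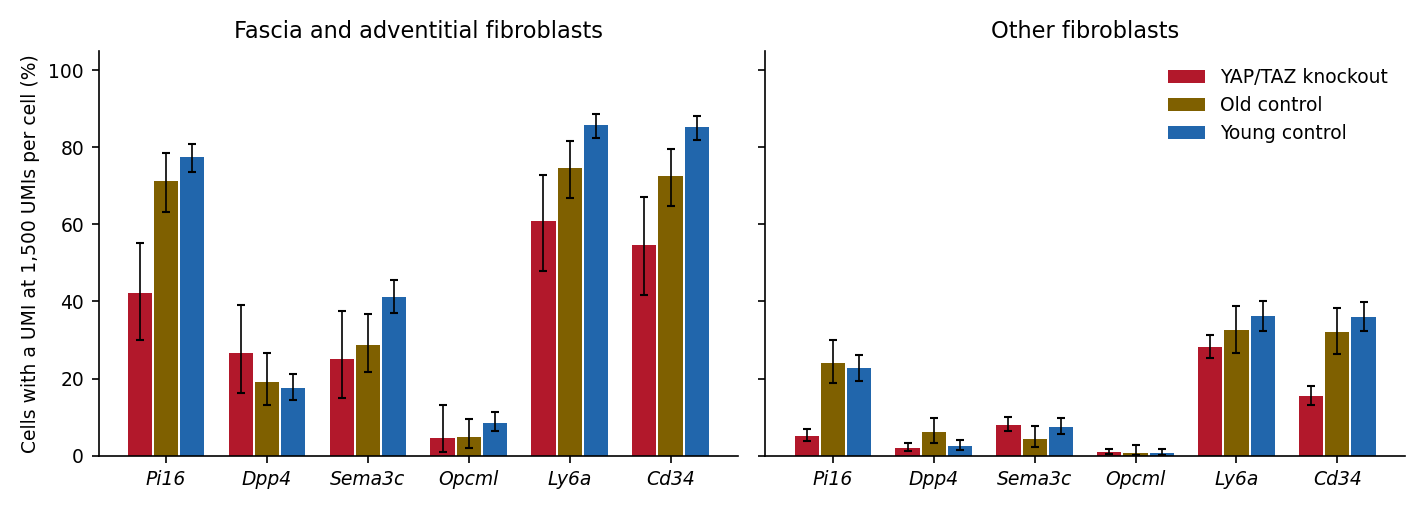
Share of cells with at least 1 UMI (%, vertical axis) after each cell was thinned to 1500 UMIs, for the 4 rule genes Pi16, Dpp4, Sema3c and Opcml and for Ly6a and Cd34, in members (left) and in the other fibroblasts of the gate (right). Bars are the knockout, the old control and the young control, and error bars are 95% Clopper-Pearson intervals. Pi16 reached 42.2% of knockout, 71.2% of old control and 77.3% of young control members, and 5.13%, 24.1% and 22.6% of other fibroblasts.

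Ly6a and Cd34 were not part of the rule and check the label. At 1500 UMIs, Ly6a was detected in 60.9% of knockout, 74.7% of old control and 85.7% of young control members, and Cd34 in 54.7%, 72.6% and 85.2%. In the fibroblasts of the same gate with fewer than 2 marker genes, called other fibroblasts below, Ly6a was detected in 28.1%, 32.5% and 36.2%. Cd34 was detected there in 15.5%, 32.1% and 36.0%. Many of these cells carried RNA of other lineages. Within the limit for markers of other lineages given above lay 201 of 1249, 139 of 476 and 304 of 813. Mural markers summed to 7199, 928 and 2928 CPM in the other fibroblasts, and Schwann markers to 4184, 921 and 6268 CPM. The part of this RNA in differences between members and other fibroblasts was not tested. The immune barcodes gave 25.2%, 11.2% and 18.9% for Ly6a and 7.02%, 4.82% and 6.74% for Cd34. Both antigens were therefore found in a larger share of members than of other fibroblasts in each library, and most members held them. Coch-positive fibroblasts, the gate cells that the Coch limit leaves out, gave 37.9%, 56.1% and 67.5% for Ly6a. For Cd34 they gave 23.2%, 43.9% and 63.6%. These shares were lower than in members of the same library. Those of the young control were higher than in knockout members. The antigens therefore do not by themselves separate members from Coch-positive fibroblasts. Not all members held an antigen UMI: 13 of 66 knockout members, 23 of 159 old control members and 17 of 525 young control members had neither. Those members had medians of 3442, 3282 and 2253 UMIs, against 6992.5, 6017 and 5526 for all members. Absence of the antigens and a missed UMI cannot be told apart in them.

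A few very deep knockout cells went against the label. Members with over 20000 UMIs numbered 7 in the knockout, 3 in the old control and 0 in the young control, and the 7 knockout cells held 41.2% of all UMIs of the knockout members. Of these 7 cells, 6 had 55 to 166 UMIs of Crabp1, a retinoid-binding protein gene of dermal papilla and papillary fibroblasts, and 102 to 469 UMIs of Igfbp3. The same 6 cells had 0 to 1 Ly6a UMIs, 0 to 1 Cd34 UMIs and 1 to 28 Col1a1 UMIs. One of them had 40 UMIs of the proliferation gene Mki67. The remaining deep knockout cell had no Crabp1 and 32 Mfap5 UMIs, and it too had no Pi16, Ly6a or Cd34 UMI. In the old control, 2 of the 3 deep cells had 35 and 31 Crabp1 UMIs and no Ly6a or Cd34, while the third had 27 Pi16, 8 Ly6a and 24 Cd34 UMIs. The rule admits such cells because a deep barcode reaches 2 marker genes with a few UMIs, and 5 of the 6 Crabp1-rich knockout cells had at least 1 Dpp4 UMI. Crabp1 and Igfbp3 were also high in the Coch-positive fibroblasts of the knockout, old control and young control. Crabp1 stood there at 2150, 1545 and 2299 CPM and Igfbp3 at 4002, 1045 and 3328 CPM, in that order. Markers of dermal papilla and sheath, which include Crabp1, summed to 2311 CPM in the 7 deep knockout cells. Markers of Coch-positive fibroblasts, which include the Coch that the rule limits, summed to 403 CPM in them. In knockout members of at most 20000 UMIs with Ly6a and Cd34 UMIs these sums were 231 and 974 CPM. Whether the deep cells are of either kind was not tested.

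**Figure D2:**
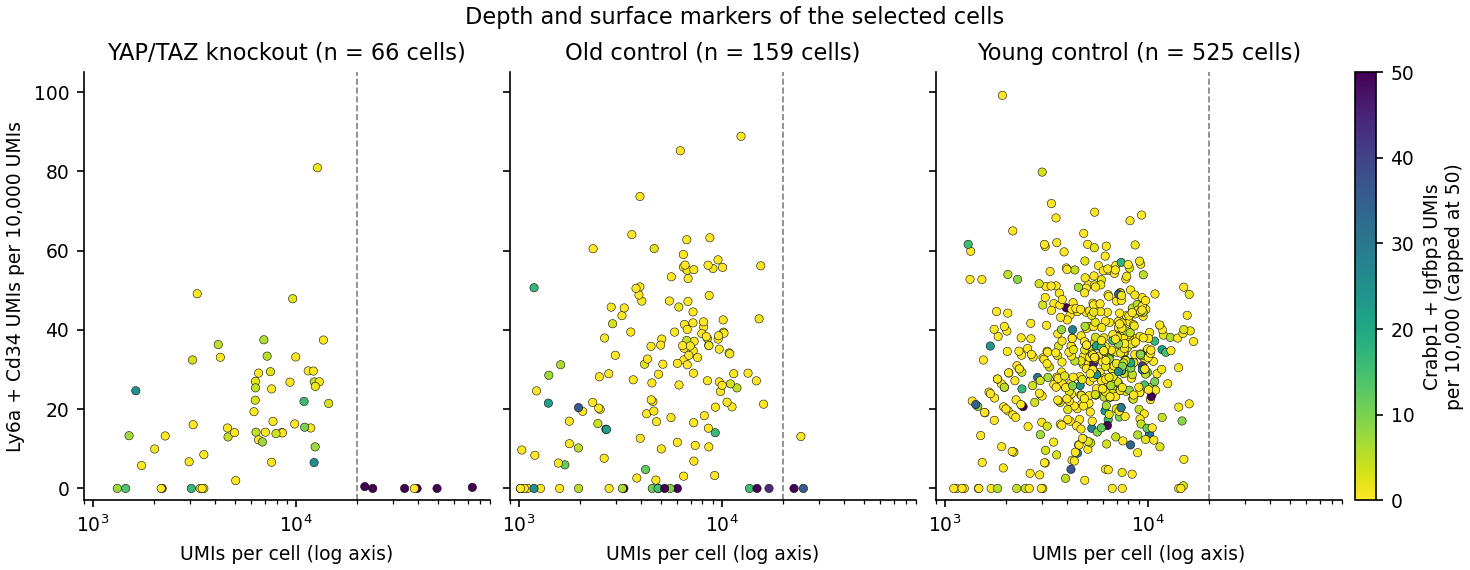
Each point is 1 member barcode, with its UMIs (horizontal, log axis) and its Ly6a plus Cd34 UMIs per 10000 UMIs (vertical), for the knockout (66 cells), the old control (159) and the young control (525). Colour gives Crabp1 plus Igfbp3 UMIs per 10000, capped at 50, and the dashed line marks 20000 UMIs. The 7 knockout cells and 3 old control cells right of the line hold 41.2% and 7.09% of their library's member UMIs, and no young control cell lies there.

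Because of these cells, results are given for all members and again for the Ly6a+ Cd34+ members, which are the members of at most 20000 UMIs with at least 1 UMI of each antigen. That subset was chosen after the cells had been seen. It held 46 of 66 knockout, 122 of 159 old control and 486 of 525 young control members, with 351065, 815995 and 2982511 UMIs. A wider form of this subset, with the lineage limit in place of the requirement of no Ptprc, Pecam1 or Krt5 UMI, held 48, 174 and 1436 cells. As a description of rule genes, the knockout to young control ratio was 0.261 for Pi16 in all members, 0.456 in the subset and 0.533 in its wider form. For Dpp4 it was 0.754, 0.939 and 1.01. Opcml stood at 59.8, 52.7 and 85.2 CPM in knockout, old control and young control cells of the subset.

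Members differed among themselves in which marker genes they held. Pi16 with Sema3c alone was the most frequent combination, in 17 knockout, 54 old control and 192 young control members. Pi16 with Dpp4 alone was found in 16, 25 and 59, and all 4 genes in 4, 18 and 63. Members with exactly 2 of the genes were 72.7% of the knockout, 58.5% of the old control and 54.9% of the young control members. The pair Dpp4 and Sema3c without Pi16 or Opcml was found in 8, 4 and 13 members, which is the combination of 3 of the 7 deep knockout cells.

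Within the young control, which had the most members, cells with all 4 marker genes differed from those with exactly 2 in several matrix and secreted products. The profiles were thinned to equal depth, but the split used full counts, at medians of 8042 and 4776.5 UMIs. Myoc, the gene of the secreted protein myocilin, stood at 720 against 101 CPM, a ratio of 7.12 [4.78 to 10.7]. Postn (periostin, a matricellular protein) stood at 1090 against 284 CPM and Col14a1, a fibril-associated collagen, at 614 against 144 CPM. Lower in the cells with all 4 genes were S100a4, a calcium-binding protein, at 52.9 against 474 CPM, and Igfbp5, an insulin-like growth factor binding protein, at 910 against 2960 CPM. The cells were split by genes of their own profile, so these values describe the variation among members and are not tested.

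Splitting the young control members by Dpp4 and by Sema3c, again on full counts, gave opposite directions for Igfbp2 and Thbs4. In the 260 members with a Dpp4 UMI, Igfbp2 stood at 323 CPM against 23.8 CPM in those without one, a ratio of 13.6 [6.92 to 30.4], and Thbs4 (thrombospondin 4) at 169 against 31.7 CPM. In the 427 members with a Sema3c UMI the direction was turned: Thbs4 stood at 40.6 against 408 CPM and Igfbp2 at 76.5 against 675 CPM. The rule contributes to this contrast, since a cell without Sema3c had to hold 2 of the other 3 genes. Dpp4 and Sema3c also occurred together, with Pi16 in 109 members and with Pi16 and Opcml in 63. The contrast is not read as 2 opposite kinds of cell. Opcml went with Plac8, Mgp and Myoc instead. In the 149 members with an Opcml UMI, Plac8 stood at 228 against 49.6 CPM, Mgp (matrix Gla protein, an inhibitor of calcification) at 510 against 141 CPM and Myoc at 425 against 121 CPM.

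Set beside the other fibroblasts of the same library at equal depth, members held more RNA of a group of genes that the rule did not name. The rule itself was applied to full counts, and these values are again a description. Clec3b (tetranectin) stood at 729, 1635 and 1819 CPM in knockout, old control and young control members, against 52.8, 396 and 553 CPM in the other fibroblasts. Adgrd1, an adhesion G-protein-coupled receptor, stood at 250, 178 and 271 CPM against 44.6, 26.8 and 72.3 CPM. Pcolce2, an enhancer of procollagen processing, stood at 333, 1297 and 905 CPM against 49.1, 281 and 263 CPM. The member value was the higher of the pair for each of these 3 genes in each library.

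The targeted genes were read first. Wwtr1 (ENSMUSG00000027803, chr3:57455649-57575910, minus strand, GRCm38) had 11 UMIs in knockout members, 117 in old control members and 341 in young control members. This is 16.2 CPM [8.07 to 28.9], 115 CPM [95.2 to 138] and 108 CPM [97.3 to 121], a knockout to young control ratio of 0.149 [0.0737 to 0.270]. In the Ly6a+ Cd34+ members the ratio was 0.183, and in the other fibroblasts 0.113. Yap1 (ENSMUSG00000053110, chr9:7931999-8004596, minus strand) had 31, 48 and 152 UMIs, or 45.6, 47.2 and 48.3 CPM, a ratio of 0.942 [0.619 to 1.39]. Wwtr1 was thus lower in the knockout members and Yap1 was not, with an interval that includes 1. Counts come from the 3' end of the RNA and the floxed exons are not named in the labels. If those exons lie elsewhere, a count cannot check their loss, so the Yap1 level does not show whether they were deleted. Between the old and the young control the ratio was 1.06 [0.852 to 1.31] for Wwtr1 and 0.976 for Yap1.

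A gene met the criterion, and was counted as higher or lower, under 3 conditions. Its CPM averaged 20 or more over the libraries, its ratio reached 2 or 0.5, and the end of its interval nearest to 1 lay past 1.5-fold. Of 6250 genes with enough counts, 566 were higher in knockout than in young control members (9.06%) and 296 were lower (4.74%). In the Ly6a+ Cd34+ members 244 of 5980 were higher (4.08%) and 172 lower (2.88%). Of the 566 higher genes, 150 were also higher in this subset (26.5% of the 566, 61.5% of the 244), and of the 296 lower genes 140 were also lower (47.3% and 81.4%). The median log2 ratio of all genes was 0.25 in all members and 0.18 in the subset. In the wider form of the subset 263 of 5953 were higher (4.42%) and 168 lower (2.82%), and in the other fibroblasts 261 of 6795 were higher (3.84%) and 417 lower (6.14%). The split in all members depends on scaling: TMM factors moved every log2 ratio by -0.23 and gave 345 higher and 435 lower, and median-of-ratios factors moved it by -0.30 and gave 293 and 486. Ratios below are on the scale of total counts, and counts within a gene list are to be read beside these shares of all genes.

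Heat shock chaperones were higher in the knockout members. Of 17 measured genes of this list, 10 were higher and 0 lower, with a median log2 ratio of 1.39 beside 0.25 for all genes. In the Ly6a+ Cd34+ members 11 were higher and 0 lower, with a median of 1.64, and in the other fibroblasts 3 were higher, with a median of 0.70. These proteins hold or refold damaged proteins, and many of their genes are induced by the factor HSF1, which binds inverted GAA repeats called heat shock elements. Their promoters, from RefSeq on GRCm38.p6, run from 250 bases before to 50 after the annotated start. The element of 2 units, GAANNTTC, reads the same on both strands and was found in 11 of 19 promoters of the listed genes (57.9%), against 2582 of all 32851 promoters (7.86%). These 19 promoters belong to the 13 listed genes that matched by symbol, and 10 of the 13 have at least 1 promoter with the element. The 3-unit heat shock element, a longer form that contains the 2-unit letters and was searched on both strands, was found in 5 of the 19 promoters and in 0.603% of all. The promoters of 3 genes with a match are shown, since these genes were among those higher in knockout members, in the direction of transcription, with the 2-unit matches in capitals. A match describes these letters only and is no evidence of binding.
Hspa1b, chr17:34959189-34959488, minus strand: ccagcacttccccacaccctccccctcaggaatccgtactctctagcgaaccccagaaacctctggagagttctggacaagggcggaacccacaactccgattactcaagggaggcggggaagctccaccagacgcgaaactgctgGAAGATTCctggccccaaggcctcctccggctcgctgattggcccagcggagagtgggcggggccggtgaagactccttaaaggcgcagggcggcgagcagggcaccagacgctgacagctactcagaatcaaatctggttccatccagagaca
Hsph1, chr5:149636266-149636565, minus strand: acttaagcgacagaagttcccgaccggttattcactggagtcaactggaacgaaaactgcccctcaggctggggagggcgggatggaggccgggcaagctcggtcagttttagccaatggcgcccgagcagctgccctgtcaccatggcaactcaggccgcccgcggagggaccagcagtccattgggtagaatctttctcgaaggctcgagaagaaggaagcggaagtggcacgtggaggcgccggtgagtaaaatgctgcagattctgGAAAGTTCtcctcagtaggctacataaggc
Hspe1, chr1:55087898-55088197, plus strand: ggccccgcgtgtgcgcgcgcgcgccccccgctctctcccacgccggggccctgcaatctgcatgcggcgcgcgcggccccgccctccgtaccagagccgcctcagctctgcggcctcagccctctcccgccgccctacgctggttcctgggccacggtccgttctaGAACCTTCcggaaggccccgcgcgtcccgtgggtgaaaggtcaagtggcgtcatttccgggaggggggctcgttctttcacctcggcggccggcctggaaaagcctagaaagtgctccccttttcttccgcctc

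Hspa1b, an inducible HSP70 gene, stood at 1625 CPM in knockout members, 173 CPM in old control members and 146 CPM in young control members. Its knockout to young control ratio was 11.1 [9.95 to 12.4], and 19.2 [17.1 to 21.5] in the Ly6a+ Cd34+ members. UMIs of it were found in 45 of 66 knockout, 66 of 159 old control and 227 of 525 young control members. The knockout value stood apart from both controls, which lay close to each other. Hspa1a, its near-identical neighbour, stood at 1286, 204 and 176 CPM, and how reads were divided between the pair is uncertain. Hsph1, the HSP110 co-chaperone, stood at 226, 20.7 and 25.4 CPM, a ratio of 8.89 [6.75 to 11.8]. The mitochondrial chaperonin pair Hspd1 and Hspe1, which share the region between their starts, had ratios of 2.65 [2.19 to 3.20] and 2.62 [2.23 to 3.07]. Hsp90aa1, the inducible HSP90, had a ratio of 2.65 [2.42 to 2.89] and its co-chaperone Dnaja1 one of 2.43 [2.15 to 2.75]. The constitutive Hspa8 stood at 1.92 [1.79 to 2.06] and did not meet the criterion in all members. In the other fibroblasts the ratios were 2.99 for Hspa1b, 2.49 for Hspa1a and 3.75 for Hsph1. No heat shock gene met the criterion between the old and the young control. Mitochondrial share differed between the libraries as given above, and its part in these values was not tested.

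Genes of protein folding in the endoplasmic reticulum followed at smaller size. Of 19 measured, 6 were higher and 0 lower in the knockout members (median log2 ratio 0.72), and in the Ly6a+ Cd34+ members 10 of 20 were higher (median 0.96), against 1 of 19 in the other fibroblasts. Pdia4, a protein disulfide isomerase, stood at 143 CPM in knockout and 45.5 CPM in young control members, a ratio of 3.13 [2.40 to 4.08]. Manf, a secreted stress protein, stood at 235 against 93.2 CPM. Hspa5 (BiP), the main chaperone of the compartment, stood at 1052 against 541 CPM, a ratio of 1.94 [1.78 to 2.12], and met the criterion in the Ly6a+ Cd34+ members (2.20) but not in all members.

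Circadian clock genes moved in both directions. Of 14 measured, 3 were higher and 5 lower in all members, and 1 was higher and 8 lower in the Ly6a+ Cd34+ members, with medians of -1.01 and -1.33. Arntl (BMAL1), the activator of the circadian loop, stood at 63.2 CPM in knockout, against 4.77 CPM in young control members, a ratio of 13.2 [7.21 to 25.7]. Dbp, a direct output of that loop, had 7 UMIs in the knockout, 308 in the old control and 539 in the young control. This is 10.3, 303 and 171 CPM, a knockout to young control ratio of 0.0600 [0.0240 to 0.124]. Per3, Nr1d2 and Tef, which are expressed in the same phase as Dbp, had ratios of 0.163, 0.330 and 0.304. The other fibroblasts showed 1 gene higher and 6 lower of 12, with Dbp at 0.0708. The labels give no time of day for the skin samples. No clock gene met the criterion between the old and the young control in all members.

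**Figure D3:**
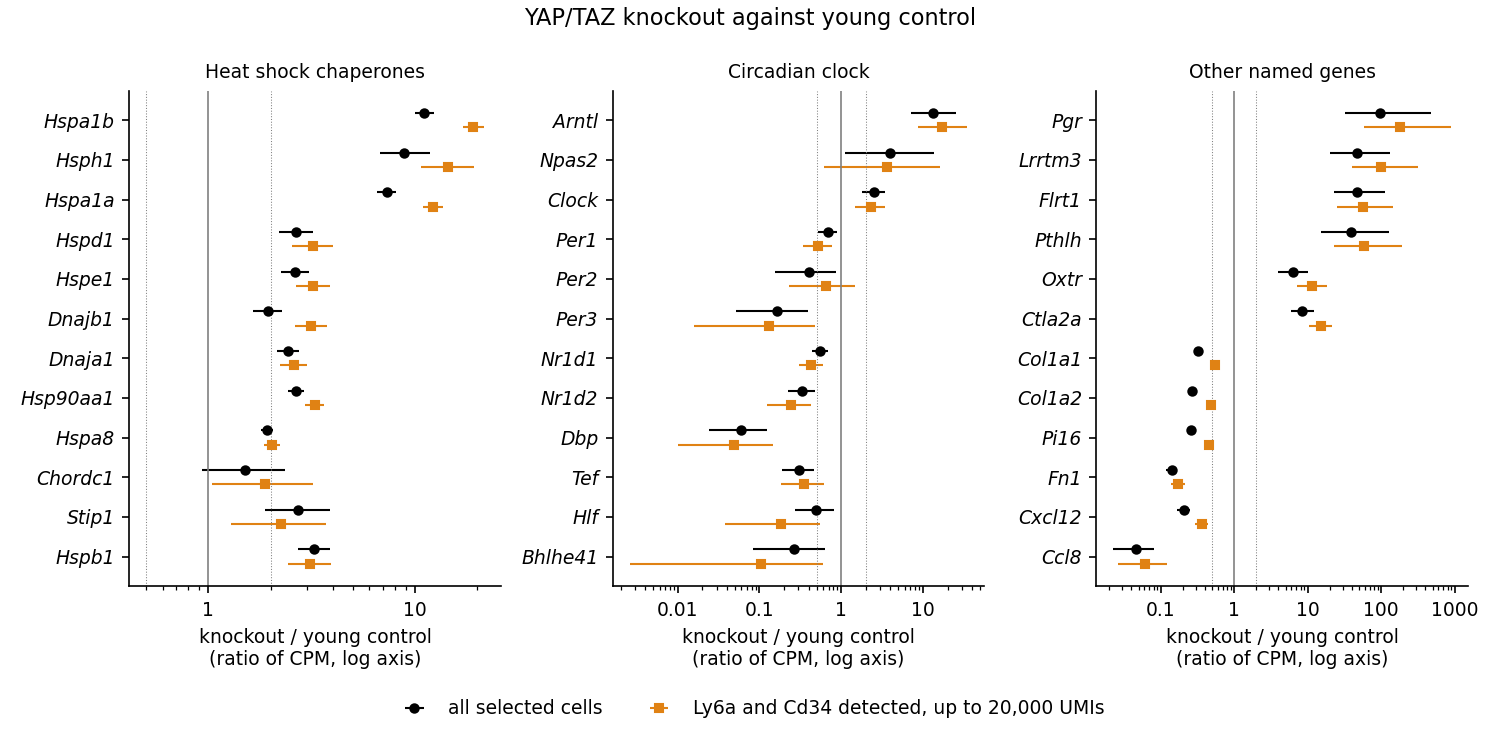
Knockout over young control ratio of CPM (horizontal, log axis) with 95% counting intervals, for heat shock genes, circadian clock genes and other named genes, in all members (black circles) and in the Ly6a+ Cd34+ members (orange squares). Dotted lines mark ratios of 0.5 and 2. Hspa1b lies at 11.1 and 19.2, Dbp at 0.0600 and 0.0493, and Pgr at 97.0 and 178.

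The knockout UMIs of most genes with the highest ratios lay in the 7 deep cells. Ranked by the near end of the interval, the 12 leading genes were Tnn, Crabp1, Wif1, Slc26a7, Lef1, Pgr, Rasd1, Prlr, Pappa2, Flrt1, Lrrtm3 and Chodl. For 9 of them the deep cells held 74.4% (Wif1) to 98.99% (Prlr) of the knockout UMIs, and for Pgr, Lrrtm3 and Flrt1 0%, 3.28% and 42.0%. In the Coch-positive fibroblasts the knockout to young control ratios of these 9 genes ranged from 0.871 (Pappa2) to 24.7 (Chodl). Crabp1 was at 0.935, Prlr at 1.28, Slc26a7 at 1.52, Rasd1 at 2.01, Lef1 at 2.1, Tnn at 3.51 and Wif1 at 3.62. In the young control those cells held Slc26a7, Rasd1, Prlr and Pappa2 at 606, 519, 894 and 479 CPM. Of the 12, Pgr, Flrt1, Lrrtm3 and Crabp1 met the criterion in the Ly6a+ Cd34+ members. Tnn and Wif1 kept ratios of 34.0 [3.36 to 1674] and 29.7 [5.66 to 293] there, from 4 and 7 knockout UMIs, and missed it through their mean level. Wif1, a secreted Wnt inhibitor of papillary and papilla fibroblasts, stood at 120 CPM in all knockout members and 19.9 CPM in that subset, against 0.636 and 0.671 CPM in the young control. Prlr, the prolactin receptor, had a ratio of 30.5 in all members and of 0.293 [0.0347 to 1.11] in the subset, from 2 knockout UMIs. Counts of Wnt pathway genes (9 of 15 higher in all members, 5 of 10 in the subset) and of cell cycle genes (3 of 4 higher, 0 of 1 in the subset) were also smaller in the subset, where fewer were measured.

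Several receptor and signalling genes were higher both in all members and in the Ly6a+ Cd34+ members. Pgr, the progesterone receptor, had 63 UMIs in 21 of 66 knockout members, 4 UMIs in 4 of 159 old control members and 3 UMIs in 2 of 525 young control members. This is 92.6, 3.93 and 0.954 CPM, a knockout to young control ratio of 97.0 [31.7 to 483], and 178 [58.3 to 888] in the Ly6a+ Cd34+ members. Lrrtm3 and Flrt1, leucine-rich repeat membrane proteins, had 61, 1 and 6 UMIs and 81, 11 and 8 UMIs, with ratios of 47.0 [20.4 to 133] and 46.8 [22.6 to 112]. Pthlh, the gene of parathyroid hormone-related protein, had 42, 1 and 5 UMIs, a ratio of 38.8 [15.4 to 126]. In all 4 genes the knockout value was far above both controls. The other fibroblasts had ratios of 26.3 for Pgr, 17.8 for Lrrtm3, 11.7 for Flrt1 and 3.24 for Pthlh, at mean levels too low for the criterion. Oxtr, the oxytocin receptor, stood at 67.6 CPM in knockout, 64.9 in old control and 10.8 in young control members. Knockout and old control thus lay together, above the young control, and both ratios use the same young control cells. Ctla2a, a cysteine protease inhibitor, stood at 140, 26.6 and 16.5 CPM, and 25 of its 95 knockout UMIs came from 1 cell.

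Lipid genes moved both ways, and the actin genes that met the criterion were higher. Among 25 measured genes of antioxidant and lipid handling 7 were higher and 5 lower, and 7 and 3 in the Ly6a+ Cd34+ members. Of all genes 9.06% were higher and 4.74% lower in all members, and 4.08% and 2.88% in the Ly6a+ Cd34+ members. Scd2, a fatty acid desaturase, stood at 542 CPM in knockout and 77.3 CPM in young control members, a ratio of 7.02 [5.95 to 8.28], beside 9.46 in the subset and 1.87 in the other fibroblasts. Hmgcs1, an enzyme of cholesterol synthesis, had a ratio of 2.63 [2.13 to 3.24]. In the actin cytoskeleton list 10 of 29 genes were higher and 0 lower, and 6 of 28 in the subset. Inf2, a formin that nucleates actin, stood at 118 CPM in knockout, against 16.9 CPM in young control members, a ratio of 6.97 [4.87 to 10.1], and 1.33 [1.09 to 1.63] in the other fibroblasts. Tpm1 (tropomyosin) had ratios of 2.92 in members and 2.95 in the other fibroblasts, and mural cell markers summed to 755, 174 and 538 CPM in knockout, old control and young control members. Their part in the actin values was not tested.

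Most YAP/TAZ target genes did not meet the criterion in the knockout. Of 20 measured targets 2 were higher and 3 lower in knockout members, with a median log2 ratio of -0.12, and in the Ly6a+ Cd34+ members 0 were higher and 2 lower of 18 (median -0.13). The shares of all genes were 9.06% higher and 4.74% lower, and 4.08% and 2.88% in the Ly6a+ Cd34+ members. In each set the median of the targets lay below the median of all genes given above. Amotl2, a target and a partner of YAP, stood at 57.3 CPM in knockout, against 225 CPM in young control members, a ratio of 0.255 [0.180 to 0.352], and 0.380 in the subset. Ctgf, the matricellular target most often used as a readout, stood at 52.9 CPM, against 125 CPM in the young control, a ratio of 0.422 [0.291 to 0.595] that was 0.776 [0.533 to 1.10] in the subset. Igfbp3 was counted as higher in all members (6.56), where the deep cells held 97.7% of its knockout UMIs, and as lower in the subset (0.177). Arhgef17 was the other target counted as higher, at 2.64 [1.60 to 4.28], and 1.66 in the subset.

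Part of the matrix genes and member markers were lower, fewer of them in the Ly6a+ Cd34+ members. Of 12 fibrillar and associated collagens 4 were lower and 0 higher, and 2 in the Ly6a+ Cd34+ members, where the median was -0.11. Col1a2 stood at 7779 CPM in knockout and 28772 CPM in young control members, a ratio of 0.270 [0.263 to 0.278], and 0.476 in the subset. Col1a1 stood at 5854 against 18343 CPM, a ratio of 0.319 [0.309 to 0.330], and at 0.556 in the subset, where it did not meet the criterion. Fn1 (fibronectin) held its size: 194 CPM in knockout, 946 in old control and 1372 in young control members gave a ratio of 0.141 [0.118 to 0.168], beside 0.172 in the subset and 0.540 in the other fibroblasts. Fap, a membrane protease of activated fibroblasts, and Cxcl12, a chemokine made by stromal cells, had ratios of 0.175 and 0.207, and 0.205 and 0.360 in the subset. Of 22 measured fascia and adventitial markers beyond the rule, 9 were lower in all members, and 2 were higher and 2 lower of 21 in the subset. Ly6a itself stood at a ratio of 0.483 and Cd34 at 0.328 in all members.

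Complement, chemokine and antigen presentation genes were mostly lower among those that met the criterion. C3, the central complement component, stood at 256 CPM in knockout and 1680 CPM in young control members, a ratio of 0.152 [0.130 to 0.177], and 0.281 in the Ly6a+ Cd34+ members. C4b, of the classical complement pathway, went the other way, at 530 against 263 CPM. Gpx3, a secreted glutathione peroxidase, stood at 479, 585 and 3125 CPM in knockout, old control and young control members, and the markers of Gpx3 and C3 high fibroblasts were lower for 7 of 8 genes in the knockout. The number of members with over 0.5% of their UMIs on these 8 markers was 29 of 66, 49 of 159 and 408 of 525. Ccl8, a chemokine for monocytes, had 11, 156 and 1114 UMIs, a knockout to young control ratio of 0.0456 [0.0227 to 0.0819], and was lower in the subset (0.0617) and in the other fibroblasts (0.170). MHC class I genes were lower for 7 of 15, and for 0 of 15 in the subset. Among 19 interferon-stimulated genes, 1 was higher and 3 were lower in all members, beside 9.06% and 4.74% of all genes. In the subset 5 of 21 were higher and 2 lower, beside 4.08% and 2.88% of all genes. Isg15, a ubiquitin-like interferon product, had a ratio of 4.62 [2.99 to 7.14], while the guanylate-binding Gbp2 and the immunity-related Iigp1 had ratios of 0.279 and 0.201.

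The lowest ratios in the knockout named epidermal and mast cell genes. Of the 12 lowest, 11 are named here: Krt77, Krtdap, Mcpt4, Fam25c, Dct, Ccl8, Plac8, Cma1, Anxa8, Krt1 and Trim29. Krt77, an epidermal keratin, had 1, 60 and 709 UMIs in knockout, old control and young control members. Mcpt4, a mast cell chymase, had 0, 21 and 259, so it was at least 18.7-fold lower in the knockout than in the young control against a floor of 3 counts. Of these UMIs, 135 in the young control and 18 in the old control lay in 1 cell each. The 12 keratinocyte markers of the members move with these genes, as given above, and all 11 that were measured were lower in the knockout. Read as free RNA of the whole library, these markers put it at 3.72%, 6.34% and 12.6% of member UMIs in knockout, old control and young control. Subtracting it from all genes gave 675 higher and 306 lower in the knockout, beside 566 and 296. How far it changes the ratios of the single genes named here is not given. Plac8, a gene of the Gpx3 and C3 high fibroblasts, had 2, 6 and 391 UMIs, and 66 young control members held it, against 2 in each of the other libraries.

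**Figure D4:**
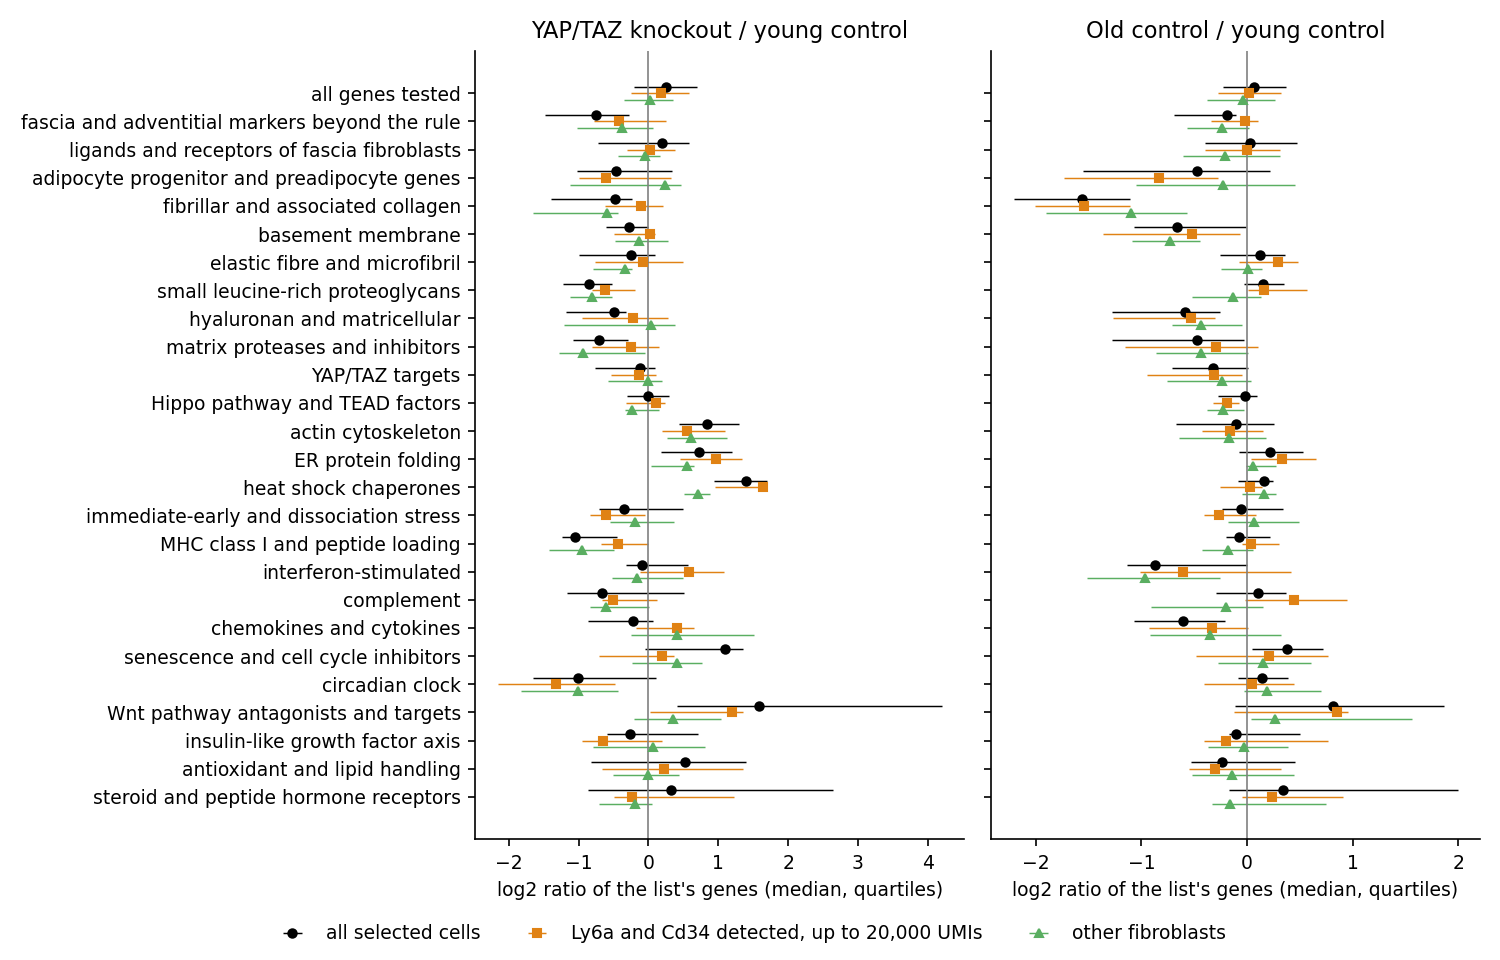
Median (symbol) and quartiles (line) of the log2 ratio of CPM over the measured genes of each list, for knockout over young control (left) and old over young control (right), in all members (black circles), the Ly6a+ Cd34+ members (orange squares) and the other fibroblasts (green triangles). Heat shock chaperones have medians of 1.39, 1.64 and 0.70 in the knockout comparison. Fibrillar collagens have medians of -1.56, -1.55 and -1.10 in the comparison of the old with the young control.

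Between the old and the young control 162 of 6250 genes were higher (2.59%) and 154 lower (2.46%). In the Ly6a+ Cd34+ members 109 of 5980 were higher (1.82%) and 155 lower (2.59%), and 73 of the 162 higher and 118 of the 154 lower genes were shared (45.1% and 76.6%). In the wider form of the subset 132 of 5953 were higher (2.22%) and 174 lower (2.92%), and in the other fibroblasts 146 of 6795 were higher (2.15%) and 297 lower (4.37%). The median log2 ratio of all genes was 0.07 in all members and 0.02 in the subset.

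Collagen genes were lower in the old control members. Of 12 measured fibrillar and associated collagens 10 were lower and 0 higher, in all members and in the Ly6a+ Cd34+ members alike, with medians of -1.56 and -1.55. In the other fibroblasts 7 of 13 were lower, with a median of -1.10. Col1a1 (ENSMUSG00000001506, chr11:94936224-94953042, plus strand, GRCm38) stood at 4121 CPM in old control and 18343 CPM in young control members, a ratio of 0.225 [0.218 to 0.232]. Col3a1 (chr1:45311538-45349706, plus strand), the partner of type I collagen in soft tissue, stood at 2219 against 11520 CPM, a ratio of 0.193 [0.184 to 0.201]. Minor chains were lower too: Col5a3 had 14 UMIs in old control and 476 in young control members (13.8 and 151 CPM), and Col14a1 had 22 and 757 (21.6 and 241 CPM). Their ratios of 0.0909 [0.0493 to 0.154] and 0.0899 [0.0560 to 0.137] were the lowest of the list. The type VI chains Col6a1, Col6a2 and Col6a3, which form beaded microfibrils, had ratios of 0.488, 0.456 and 0.351.

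Other matrix genes split between those that were lower and those that were not. Sparc (osteonectin), which binds collagen, stood at 2528 CPM in old control and 9767 CPM in young control members, a ratio of 0.259 [0.249 to 0.270]. Postn stood at 97.4 against 585 CPM, a ratio of 0.167 [0.135 to 0.204], beside 0.169 in the Ly6a+ Cd34+ members and 0.786 [0.688 to 0.897] in the other fibroblasts. Eln (elastin) and its crosslinker Lox had ratios of 0.399 and 0.333, yet only these 2 of 17 elastic fibre genes were lower and the median of that list was 0.12. In the basement membrane list 6 of 14 were lower, among them Col4a1 at 191 against 502 CPM. Proteases and inhibitors showed 6 of 25 lower and 1 higher, with Adamts2, which trims procollagen, at 357 against 979 CPM and Fap at 33.4 against 109 CPM. Small leucine-rich proteoglycans did not follow the collagens: 1 of 10 was higher and 1 lower, and the median was 0.15. The 1 counted as higher, Fmod, rests on 61 of 63 UMIs in a single cell, and its ratio was 0.406 in the subset.

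**Figure D5:**
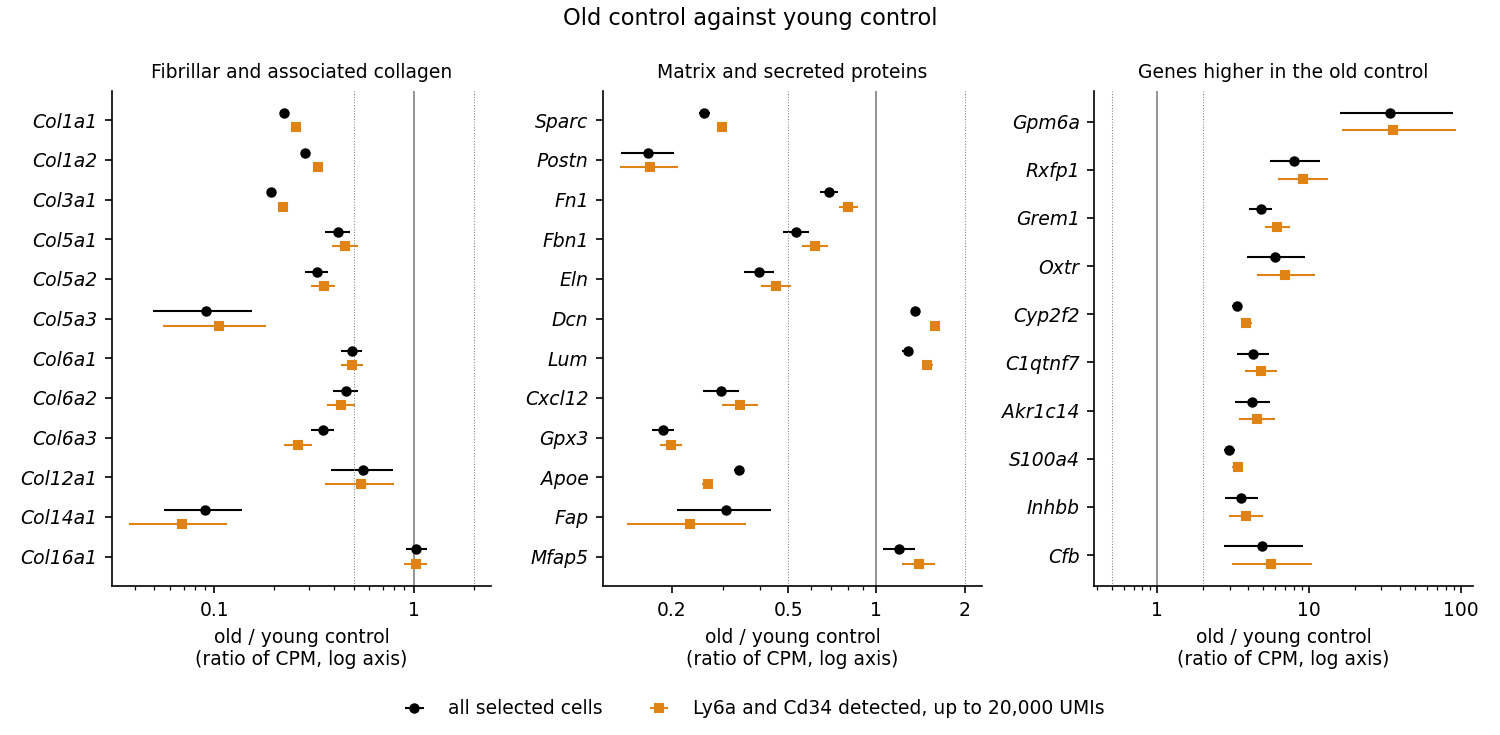
Old over young control ratio of CPM (horizontal, log axis) with 95% counting intervals, for collagens, other matrix and secreted genes, and genes that were higher in the old control, in all members (black circles) and in the Ly6a+ Cd34+ members (orange squares). Dotted lines mark ratios of 0.5 and 2. Col1a1 lies at 0.225 and 0.258, Postn at 0.167 and 0.169, and Gpm6a at 34.5 and 36.0.

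Some secreted, lipid and interferon genes were also lower in the old control members. Apoe, the lipid-carrying apolipoprotein, stood at 3255 CPM in old control and 9609 CPM in young control members, a ratio of 0.339 [0.327 to 0.351], against 0.855 in the other fibroblasts. The Gpx3 and C3 high markers were lower for 6 of 8 genes, with a median of -1.99, and Gpx3 had a ratio of 0.187 [0.172 to 0.203]. Cxcl12 stood at 220 against 744 CPM and Lpl, a lipoprotein lipase of preadipocytes, at 132 against 382 CPM. Among 14 adipocyte progenitor genes 5 were lower and 0 higher, including F3 (tissue factor), at 6.88 against 63.9 CPM. Of 19 interferon-stimulated genes 6 were lower and 1 higher, beside 2.46% and 2.59% of all genes. Ifi27l2a, an interferon-inducible gene, had 14 UMIs in old control and 615 in young control members, a ratio of 0.0704 [0.0383 to 0.119]. Gbp2b, a guanylate-binding protein, had 0 UMIs in 159 old control members, 17 in 66 knockout members and 255 in 525 young control members, and was at least 27.5-fold lower in the old than in the young control. Its count was 0 in the other fibroblasts of the old library as well. Isg15 went the other way, at 34.4 against 14.3 CPM.

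YAP/TAZ targets in the old control showed 4 lower and 1 higher of 20, with a median of -0.32, beside 2.46% lower and 2.59% higher of all genes. Ctgf stood at 42.3 CPM in old control, against 125 CPM in young control members, a ratio of 0.337 [0.240 to 0.463], and Thbs1, a matricellular thrombospondin, at 214 against 594 CPM. In the other fibroblasts the ratios were 1.04 [0.831 to 1.31] and 0.819 [0.722 to 0.926], and neither met the criterion. Nt5e (CD73), the 1 counted as higher, had a ratio of 2.22 [1.61 to 3.04].

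Genes that were higher in the old control both in all members and in the Ly6a+ Cd34+ members included 2 hormone receptors and a BMP antagonist. Gpm6a, a neuronal membrane glycoprotein, had 78 UMIs in 49 of 159 old control members, 4 UMIs in 2 of 66 knockout members and 7 UMIs in 7 of 525 young control members. Its old to young ratio was 34.5 [16 to 88.5], beside 1.58 in the other fibroblasts. In the Coch-positive fibroblasts Gpm6a was also higher in the old control, at 89.5 against 8.74 CPM, a ratio of 10.2 [3.95 to 33.8]. Rxfp1, the relaxin receptor, stood at 104 CPM in old control and 13.0 CPM in young control members, a ratio of 7.99 [5.53 to 11.8]. At equal depth it stood at 132 CPM in members and 13.4 CPM in other fibroblasts of the old control. Grem1, a secreted BMP antagonist, stood at 318 against 66.2 CPM, a ratio of 4.80 [4.02 to 5.74], and 0.797 in the other fibroblasts. Oxtr had a ratio of 6.0 [3.91 to 9.36]. All 4 genes met the criterion in the Ly6a+ Cd34+ members, with ratios of 36.0, 9.09, 6.21 and 6.99. Cyp2f2, a cytochrome P450, stood at 1333 against 395 CPM and Akr1c14, a hydroxysteroid dehydrogenase, at 138 against 32.4 CPM. S100a4 stood at 1045, 1217 and 406 CPM in knockout, old control and young control members, above the young control in both. C2 and Cfb, components that build the complement convertase, had ratios of 2.65 [2.11 to 3.33] and 4.95 [2.74 to 9.13]. Cfb met the criterion in the subset, since its mean level fell short in all members.

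Ranked in the same way, the 12 leading genes in the old control were Tnn, Lef1, Pappa2, Gpm6a, Crabp1, Slc26a7, Rasd1, Col23a1, Fmod, Akr1c18, Cpne5 and Inhba, and 3 of them met the criterion in the Ly6a+ Cd34+ members (Gpm6a, Crabp1 and Col23a1). Tnn and Pappa2 kept ratios of 106 [17.6 to 4329] and 3.90 [1.81 to 8.47] there and missed it through their mean level. Akr1c18 rests on 91 of 100 UMIs in 1 cell. Of the 12 lowest, 11 are named here: Gbp2b, Ptx3, Plac8, Ifi27l2a, Mgp, Col14a1, Col5a3, Myoc, Krt1, Col3a1 and Gpx3. All 11 were lower in the subset. Ptx3 (pentraxin 3) had 1 UMI in old control and 187 in young control members, and Myoc had 29 and 755. Myoc, Postn and Col14a1, described above as higher in young control members with all 4 marker genes than in those with 2, were thus lower in the old control. Members with all 4 were 11.3% of the old control and 12% of the young control.

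Both comparisons use the same young control cells, so a gene that is high or low in the young control moves in both. Values are therefore set side by side without an overlap count. Crabp1 stood at 939, 250 and 11.5 CPM in knockout, old control and young control members, and at 191, 41.7 and 10.4 CPM in the Ly6a+ Cd34+ members. Col1a1 stood at 10568, 4902 and 19007 CPM in that subset, with the old control lowest. Hspa1b stood at 2743, 170 and 143 CPM in it, with the knockout apart from both controls. Inhbb, the inhibin beta B subunit, stood at 80.8, 143 and 39.8 CPM in all members, with the young control lowest.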

How the data were processed

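The files hold counts of unique molecular identifiers (UMIs) per gene and barcode for 31053 features, deposited as 10x matrices whose file headers, the source for this step, name Cell Ranger 3.1.0 as the software that wrote them. The submitters' processing notes name mm10 and Seurat 3.1.5. How barcodes were selected before deposit is not stated. Members, gene lists and the criterion were chosen with earlier results of these data known, and the Ly6a+ Cd34+ subset and the wider forms were added after these cells had been seen. The rule for named genes took, in each direction, the 12 genes past the criterion with the near end of the interval farthest from 1. It left out mitochondrial, ribosomal, haemoglobin, immunoglobulin and T cell receptor, sex-linked and unnamed genes, and genes over 10 times more abundant in barcodes with Ptprc, Pecam1 or Krt5.

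Member counts were summed per library and divided by their total. Ratios have 95% exact binomial intervals, log2 ratios have 0.5 counts added, and genes at 0 are bounded by a floor of 3 counts. Shares have Clopper-Pearson intervals, and intervals and floors cover counting error only. Doublets were not removed in the main result: Scrublet (scanpy 1.11.5) marked 0%, 0.0248% and 3.30% of barcodes in the knockout, old control and young control, so the 8% with the highest scores were left out as an alternative. TMM factors came from edgeR 4.0.16 in R 4.3.3, and the rest from Python 3.11.15 with numpy 2.4.6, scipy 1.17.1, pandas 2.3.3 and matplotlib 3.10.9. Some genes that the rule or the lists take in are not reported here. The steps were tested on simulated counts. Coordinates are GRCm38.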

Additional observations from a re-analysis of the deposited data

How the results depend on the processing

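Each group is 1 library, so no replicate could be left out. No paired analysis was possible because each group has a single sample. Among the values that answer a comparison, 66 stayed near their size under the alternatives and 43 moved, and among the other values 1860 stayed near, 444 moved and 22 changed direction. The cause was not tested except where the alternative itself removes cells or genes.

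Genes higher in knockout than in young control members numbered 566, and 346 with no Coch UMI, 188 at 1500 UMIs per member, 345 with TMM factors, 293 with median-of-ratios factors, 970 with no low-value filter, 249 without members over 20000 UMIs, 244 in the Ly6a+ Cd34+ members and 263 in their wider form. Lower genes numbered 296, and 96 at 1500 UMIs, 486 with median-of-ratios factors, and 174, 172 and 168 in the last 3 cell sets. Between old and young control, 162 genes were higher, and 94 at 1500 UMIs, 263 with a mean CPM of 5 and 308 with no filter. Lower genes numbered 154, and 81, 245 and 276 under the same alternatives.

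The share of the gate in the knockout, old control and young control was 9.97%, 31.0% and 42.6% with a mitochondrial limit of 10%, 1.37%, 10.4% and 17.7% with at least 3 marker genes, and 21.2%, 48.1% and 60.4% below the lineage limit. It was 2.28%, 11.7% and 19.3% without Pi16 in the rule, 2.97%, 19.8% and 33.8% without Dpp4, and 3.04%, 15.9% and 23.4% without Sema3c. It was 2.09%, 19.5% and 24.5% at 1500 UMIs, and 19.5%, 46.8% and 64.8% with the lineage limit in place of the requirement of no Ptprc, Pecam1 or Krt5 UMI. The knockout was lowest in each.

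Some ratios passed to the other side of 1, and in the Ly6a+ Cd34+ members and their wider form these rest on few UMIs, with intervals that include 1 for all of them except Fmod in the wider form. In the knockout they were Prlr (0.524 without members over 20000 UMIs, 0.293 in the Ly6a+ Cd34+ members, 0.356 in their wider form), Pappa2 (0.566 and 0.721 in the last 2 sets), Chodl (0 and 0), and, in the wider form, Slc26a7 (0.841) and Rasd1 (0.682). Between old and young control they were Slc26a7 (0.991 without Dpp4 in the rule, 0.731 in the Ly6a+ Cd34+ members), Fmod (0.406 there, 0.0959 in the wider form) and Akr1c18 (0.907 without members over the lineage limit, 0.609 in the Ly6a+ Cd34+ members, 0.733 with the lineage limit in place of the requirement, 0.661 in the wider form). The median log2 ratio of cell cycle genes in the knockout turned to -0.18 with at least 3 marker genes, -0.45 with no Coch UMI, -0.37 without Sema3c in the rule, -0.46 in the Ly6a+ Cd34+ members and -0.26 in their wider form.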
